A study of Mus musculus with 6 samples.

Results

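The 7 genes described here were the interferon regulatory factors (IRFs) Irf1, Irf2, Irf3, Irf4, Irf5 and Irf8, and Irf2bp2, whose product is no IRF but binds IRF2. They were taken from the deposited normalized matrix as the rows that carry these mouse gene symbols. The matrix listed 13564 genes and the count files 55487. All 7 had enough reads to be tested. The libraries came from naive CD4 T cells of lymph nodes of C57BL/6J mice, either Foxo1TKO, whose T cells lack the transcription factor Foxo1 because a Cre recombinase under Cd4 control deletes floxed Foxo1 (CD4cre Foxo1 fl/fl), or Foxo1Ctrl, with the same floxed alleles and no Cre. Each genotype had 3 libraries. Cd4-driven Cre acts in developing thymocytes, so the naive cells had lost Foxo1 before the culture. By the labels, 50000 of these T cells per culture were activated for 4 days by an anti-CD3 antibody at 0.1 µg/ml, with 250000 splenocytes of CD3eKO mice (CD3e-deficient and so without T cells) as antigen-presenting cells. The study's methods give a larger number of T cells for such cultures, so the ratio of T cells to splenocytes is uncertain. Any pooling of animals and any separation of T cells from the splenocytes before RNA extraction are not given in the sources used here. The labels number the libraries of a genotype 1 to 3 and do not say whether they came from separate animals or cultures, so the p-values measure only the spread between these libraries, which may be technical.

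The proteins of the IRF family share a DNA-binding domain that reads GAAA repeats, the core of the interferon-stimulated response element (ISRE) of antiviral genes. IRF3 and IRF5 wait in the cytoplasm until innate sensors trigger their phosphorylation, whereas IRF1 is made in response to interferon gamma, and IRF2 occupies many of the same sites as IRF1 and can antagonize it. IRF4 and IRF8 are the lymphoid and myeloid members, which bind DNA weakly alone and act through partners such as PU.1 or the AP-1 factor BATF. In T cells, IRF4 is induced by antigen receptor signals.

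Short stretches upstream of the start sites of Irf8, Irf1 and Irf2 are shown because these promoters held letters of interferon-response motifs. By the limits given below, Irf8 was called as differing between genotypes, and Irf1 and Irf2 were not. The sequences are those of RefSeq (GRCm38.p6), 5′ to 3′ on the plus strand, with capitals marking the match to the GAS motif, TTCNNNGAA, the gamma-activated site of genes that interferon gamma induces, and in Irf2 also the first match, to the ISRE core GAAANNGAAA.
Irf8, chr8:120736158-120736237, bases -200 to -121 from the start site: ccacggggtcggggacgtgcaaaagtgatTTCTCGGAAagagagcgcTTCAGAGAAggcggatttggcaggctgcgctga
Irf1, chr11:53769884-53769963, bases -130 to -51: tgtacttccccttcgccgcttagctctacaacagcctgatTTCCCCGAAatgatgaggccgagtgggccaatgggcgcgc
Irf2, chr8:46739495-46739574, bases -250 to -171: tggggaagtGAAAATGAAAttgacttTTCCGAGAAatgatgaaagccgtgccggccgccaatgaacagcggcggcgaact

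Each RefSeq window ran from 250 bases before to 50 bases after a start site and both strands were searched. All 7 members matched this table, Irf1 and Irf8 with 2 windows each. Among 32851 such windows of all genes, 8.3% held the GAS letters, 3.44% the ISRE core, 3.65% the forkhead core GTAAACA that Foxo proteins bind, and 7.81% the AP-1 motif TGANTCA. No window of the 7 members held the forkhead core or the AP-1 letters, and the Irf4 window held none of the 4 motifs. Such matches are letters only and were not tested as binding sites.

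The targeted gene differed as the labels state. Foxo1 stood at 85.36, 46.5 and 114.8 normalized counts in Foxo1TKO libraries 1, 2 and 3 and at 1529, 2285 and 1598 in Foxo1Ctrl. Its log2 fold change was -4.45 (SE 0.36, edgeR quasi-likelihood test with Benjamini-Hochberg adjustment, adjusted p = 0.000195). The libraries held 14783890 to 19675447 expected read counts. Normalized counts here are expected counts scaled by library size with the trimmed mean of M values (TMM). A gene was called when its adjusted p was under 0.05 and its fold change over 1.5.

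Of the 7 members, 2 were called, with Irf8 higher and Irf4 lower in Foxo1TKO. Among all 13691 genes tested, 23.0% were called, 11.1% as higher and 11.8% as lower. Irf2 also had an adjusted p under 0.05 at a smaller fold, which 24.2% of all genes reached at any fold. The libraries of the genotypes did not overlap for 4 members, against 42.7% of all genes, with Irf8 higher and Irf1, Irf2 and Irf4 lower. These shares over 7 genes stand near the background and are no result about the members as a whole. The median log2 fold change of the members was -0.34, beside 0.01 over all genes tested.

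**Figure D1:**
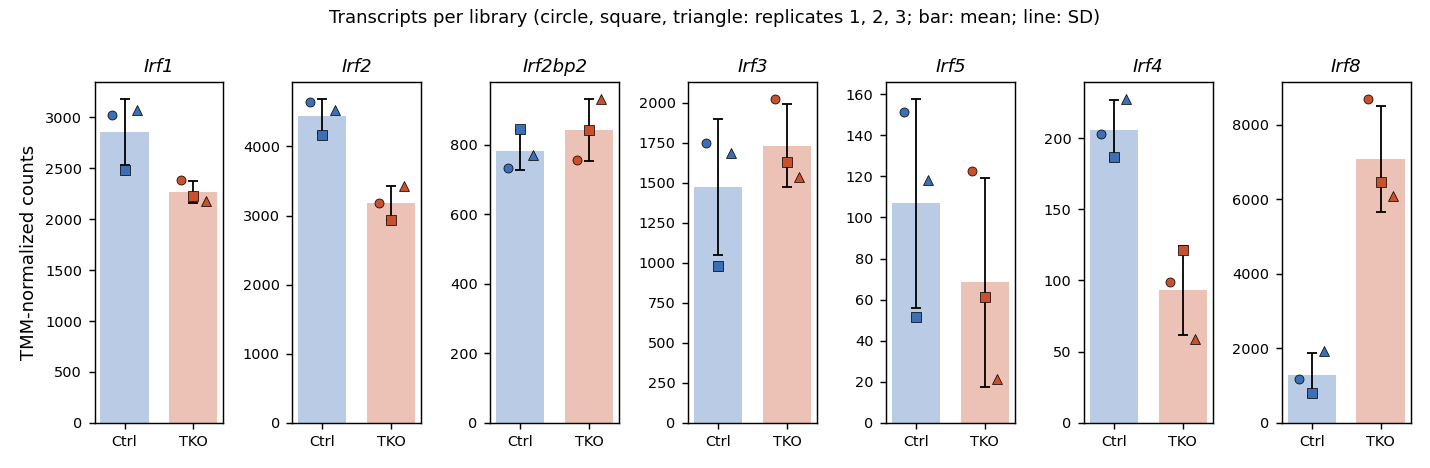
TMM-normalized counts of the 7 members in each library, 1 panel per gene, with the genotype on the horizontal axis and a linear vertical axis from 0 that differs between panels. Points are libraries, bars are means and lines are SDs (n = 3). The Foxo1TKO libraries lie above Foxo1Ctrl for Irf8 and below it for Irf1, Irf2 and Irf4, while the points of Irf3, Irf5 and Irf2bp2 overlap.

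Irf8, which directs dendritic cell, macrophage and B cell programs, was the member that rose. It reached 8698, 6457 and 6086 normalized counts in Foxo1TKO libraries 1, 2 and 3, against 1182, 789.1 and 1916 in Foxo1Ctrl. The lowest Foxo1TKO library was far above the highest Foxo1Ctrl library, and both genotypes spread widely among themselves. The means were 7080 ± 1413 and 1296 ± 572.3 (SD, n = 3), a 5.46-fold difference with a log2 fold change of 2.45 (SE 0.33, edgeR, adjusted p = 0.00172). The gene lies at chr8:120736358-120756694 on the plus strand (GRCm38), with 7 annotated transcripts. It shares no exon with another gene.

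Markers of the other cell types known to express Irf8 were read in the same libraries. In these bulk libraries, more cells of a type and more RNA per cell cannot be told apart. The part of these cell types in the Irf8 difference was not tested. Of 10 B cell markers, 8 were tested and 4 fell (Ms4a1, Cd79a, Cd79b and Cd22), where 11.8% of all genes fell. The 10 summed to 9.27 to 12.8 CPM (counts scaled to a common library total) in Foxo1TKO and 28.2 to 36.1 in Foxo1Ctrl. Irf8 alone stood at 343.7 to 542.9 CPM and 39.73 to 108.3 CPM in the same libraries. The calls of Cd79a and Cd22 were lost in 4 and 5 of the 6 fits that each leave out 1 library, and in 2 and 7 of the 11 other alternatives.

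The 7 dendritic cell markers summed to 34.5 to 35.6 CPM in Foxo1TKO and 7.72 to 15.001 CPM in Foxo1Ctrl. This difference lay in 1 gene, Itgax, which encodes the integrin CD11c and had 414, 469 and 452 expected counts in Foxo1TKO and 1, 0 and 1 in Foxo1Ctrl. Without Itgax, left out after its values were seen, the other 6 markers summed to 8.24 to 12.7 and 7.72 to 14.95 CPM. Flt3, Clec9a and Siglech, which define dendritic cell types, had at most 5 counts in any library, and Cd209a had 0 in all. Zbtb46 and Xcr1 were tested and not called. The 7 macrophage and monocyte markers summed to 4.68 to 6.42 CPM in Foxo1TKO and 3.17 to 6.49 CPM in Foxo1Ctrl, and neither of the 2 that could be tested was called. The 4 neutrophil markers summed to at most 1.48 CPM. Among 8 T cell markers, which summed to 8174 to 8630 CPM and 8681 to 8804 CPM, only Cd28, the costimulatory receptor, was called, and it fell by 1.43 on the log2 scale.

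Irf4, induced by antigen receptor signals and required for effector T cells and plasma cells, was the member that fell past the fold limit. It had 98.88, 121.1 and 59.03 normalized counts in Foxo1TKO and 202.7, 186.4 and 227.7 in Foxo1Ctrl. Each Foxo1TKO library was below each Foxo1Ctrl library, and replicate 3 held the extremes of both genotypes. The means were 93.0 ± 31.44 and 205.6 ± 20.8 (SD, n = 3), a 2.19-fold lower level with a log2 fold change of -1.13 (SE 0.29, edgeR, adjusted p = 0.0271).

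The Irf4 call was close to the threshold. It was lost without Foxo1TKO replicate 1 or 3 or Foxo1Ctrl replicate 1 or 3, with log2 fold changes of -1.36 to -0.90 over the 6 fits that each leave out 1 library and adjusted p of 0.0376 to 0.0887 (edgeR). Of the 11 other alternatives, 9 kept the call and 2 lost it, with adjusted p from 0.00227 (DESeq2) to 0.0744 (limma). Plasma cells also use Irf4. Of their 5 markers, 3 were tested and 2 fell, Jchain with a log2 fold change of -1.47 and Mzb1 with -2.04. Among all genes, 11.8% fell. The 5 markers summed to 22.4 to 55.4 CPM in Foxo1TKO and 93.9 to 126.8 CPM in Foxo1Ctrl. Irf4 itself stood at 3.33 to 7.01 and 9.39 to 12.9 CPM. The Jchain call was lost in 3 of the 6 fits. The part of these cells in the Irf4 difference was not tested. The gene lies at chr13:30749226-30766976 on the plus strand, has 3 annotated transcripts and overlaps no other gene.

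Irf2, the antagonist of IRF1 and also a repressor of interferon responses, was lower in every Foxo1TKO library. It had 3179, 2934 and 3430 normalized counts in Foxo1TKO and 4638, 4165 and 4533 in Foxo1Ctrl. The groups were well apart, with nearly equal spreads. The means of 3181 ± 248 and 4445 ± 248.4 (SD, n = 3) gave a log2 fold change of -0.48 (SE 0.14, edgeR, adjusted p = 0.0364), a 1.40-fold lower level that did not reach the fold limit. The adjusted p rose above 0.05 in 5 of the 6 fits that each leave out 1 library, staying below only without Foxo1Ctrl replicate 2, over a range of 0.0246 to 0.171, and was 0.0832 with no filter on low counts (edgeR).

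The mean length of the Irf2 transcripts that RSEM assigned was larger in Foxo1TKO, but the genotypes overlapped. The isoform-weighted length was 1745, 1562 and 1735 bases in Foxo1TKO and 1461, 1399 and 1566 bases in Foxo1Ctrl. The mean was 205 bases longer in Foxo1TKO, and the ranges overlapped at 1 library of each genotype (exact permutation test, two-sided, p = 0.2, where 3 against 3 allows no p under 0.1). With the effective length as an offset in edgeR, the Irf2 log2 fold change was -0.69 (adjusted p = 0.00846), and with the deposited normalized matrix in limma it was -0.69 (adjusted p = 0.00751), both past the fold limit. Irf2 lies at chr8:46739732-46847458 on the plus strand with 11 annotated transcripts, and the genes it overlaps share no exon with it.

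Irf1, the activator induced by interferon gamma, had 2389, 2229 and 2180 normalized counts in Foxo1TKO and 3021, 2486 and 3074 in Foxo1Ctrl. All Foxo1TKO libraries lay below Foxo1Ctrl, with Foxo1Ctrl library 2 the closest to them. The means of 2266 ± 109.5 and 2861 ± 325.4 (SD, n = 3) gave a log2 fold change of -0.34 (SE 0.14, edgeR, adjusted p = 0.135), so Irf1 was not called. Irf1 lies at chr11:53770014-53778374 on the plus strand, and shares exon sequence with the opposite-strand gene Gm17334. The sources used here do not give the strand setting of the counting, so reads of such pairs cannot be told apart.

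Irf2bp2, a corepressor that binds IRF2, had 755.6, 842.3 and 933.7 normalized counts in Foxo1TKO and 733.3, 845.1 and 772.2 in Foxo1Ctrl. The libraries overlapped, and the log2 fold change was 0.11 (SE 0.16, edgeR, adjusted p = 0.672). It is the member with a single annotated transcript, at chr8:126588296-126593986 on the minus strand, with an exon overlap with Gm26759.

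The members that innate sensors activate were not called. Irf3 had 2025, 1626 and 1538 normalized counts in Foxo1TKO and 1747, 981.2 and 1688 in Foxo1Ctrl. Foxo1Ctrl library 2 was the lowest of the 6, and the other 5 overlapped. The log2 fold change was 0.23 (SE 0.24, edgeR, adjusted p = 0.532), and 0.03 without Foxo1Ctrl replicate 2. Irf3 shares exon sequence with the opposite-strand gene Bcl2l12 and lies at chr7:44997648-45002848.

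Irf5, which acts below Toll-like receptors in myeloid and B cells, had 122.5, 61.42 and 21.46 normalized counts in Foxo1TKO and 151.4, 51.46 and 118.2 in Foxo1Ctrl. Relative to its mean, it varied more among libraries of 1 genotype than any other member, and the groups overlapped. The log2 fold change of -0.63 (SE 0.61, edgeR, adjusted p = 0.503) was about as large as its error. It was -0.22 without Foxo1TKO replicate 3, -0.29 without Foxo1Ctrl replicate 1 and -1.34 without Foxo1TKO replicate 1. Irf5 lies at chr6:29526625-29541871 and overlaps an exon of Tnpo3 on the opposite strand.

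In TPM, the transcript level scaled by transcript length and library size, the order of the members differed between genotypes. In Foxo1Ctrl, Irf2 led with 218.4 ± 26.75 TPM, followed by Irf3 at 103.2 ± 24.14, Irf1 at 97.59 ± 20.55 and Irf8 at 33.42 ± 17.04 TPM (SD, n = 3). Irf2bp2 followed at 10.21 ± 0.465 TPM, Irf5 at 3.57 ± 1.92 TPM and Irf4 at 2.89 ± 0.545 TPM. Among neighbours in this order, the library ranges of Irf3 and Irf1 overlapped, as did those of Irf5 and Irf4.

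In Foxo1TKO, Irf8 stood first with 182.4 ± 58.29 TPM, ahead of Irf2 at 139.7 ± 6.34, Irf3 at 117.6 ± 17.47 and Irf1 at 80.61 ± 10.76 TPM (SD, n = 3). Between libraries, the range of Irf8 overlapped that of Irf2, and the range of Irf2 that of Irf3, whereas within each of the 3 libraries the order was Irf8, Irf2, Irf3. Irf2bp2 at 11.39 ± 0.261 TPM, Irf5 at 2.42 ± 1.94 TPM and Irf4 at 1.36 ± 0.503 TPM kept the last places, and the ranges of Irf5 and Irf4 overlapped again.

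**Figure D2:**
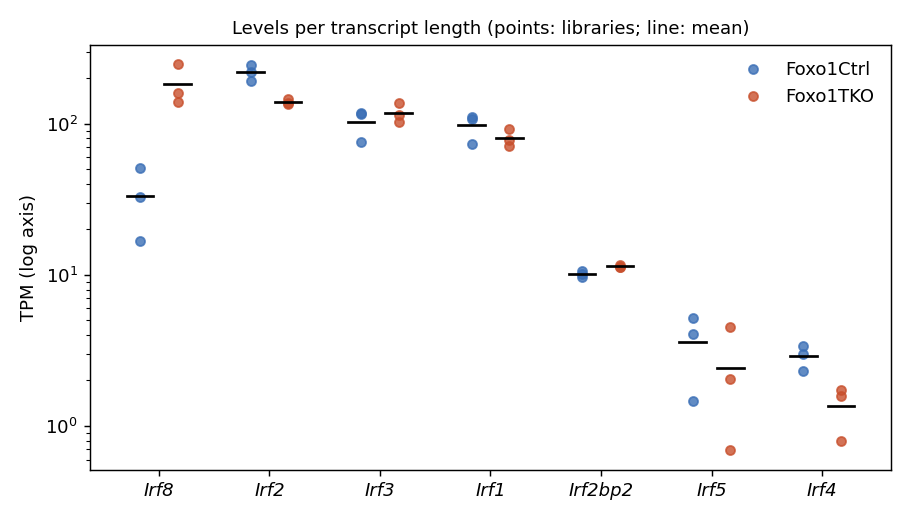
TPM of the 7 members on a log axis, with 1 point per library and a line at the mean of each genotype (n = 3). Irf8 moves from the fourth place in Foxo1Ctrl, at 33.42 TPM, to the first in Foxo1TKO, at 182.4 TPM, and Irf4 is the lowest in both.

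The summed TPM of the 7 genes was 535.5 ± 94.66 in Foxo1TKO and 469.3 ± 85.75 in Foxo1Ctrl (SD, n = 3). Irf8 made up 33.5 ± 4.57% of that sum in Foxo1TKO and 6.88 ± 2.703% in Foxo1Ctrl, while Irf2 made up 26.5 ± 3.26% and 47.0 ± 4.44%. The share of Irf3 was 22.0% in Foxo1TKO and 21.8% in Foxo1Ctrl. These shares add to a whole, so a larger Irf8 share lowers the others.

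The ratio of the sister genes Irf8 and Irf4, chosen after their values were seen, was 158.4, 91.93 and 176.4 TPM per TPM in Foxo1TKO and 10.84, 7.30 and 15.09 in Foxo1Ctrl. Its log2 difference was 3.69 (SE 0.42). Irf8 was higher and Irf4 lower in every Foxo1TKO library, so this ratio had to separate the genotypes, and no test of it is given. The ratio of the activator Irf1 to its antagonist Irf2, chosen in the same way, was 0.630, 0.565 and 0.531 in Foxo1TKO and 0.441, 0.388 and 0.504 in Foxo1Ctrl. It was higher in each Foxo1TKO library, although Irf1 itself was lower there, with a log2 difference of 0.38 (SE 0.13). As this ratio was chosen after its values were seen, no test of it is given either. This separation held only per transcript length. From normalized counts the ratio was 0.752, 0.760 and 0.636 in Foxo1TKO and 0.651, 0.597 and 0.678 in Foxo1Ctrl. The genotypes overlapped, with a log2 difference of 0.15 (SE 0.10). The Irf8 to Irf4 difference was 3.73 (SE 0.41) from normalized counts.

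Beside the members stood 4 related genes, the IRF genes Irf7 and Irf9 and the Irf2bp2 relatives Irf2bpl and Irf2bp1. Of these, 1 fell and none rose, where 11.8% of all genes fell. The median log2 fold change over the 4 was -0.89. Irf9, the DNA-binding subunit of the interferon-activated complex ISGF3, had 2200, 2737 and 2332 normalized counts in Foxo1TKO and 5225, 4646 and 4804 in Foxo1Ctrl. Its log2 fold change was -1.01 (SE 0.15, edgeR, adjusted p = 0.00241), and the libraries were far apart. Irf7, the amplifier of type I interferon, gave -1.20 (SE 0.47, adjusted p = 0.102) with overlapping groups, since Foxo1Ctrl library 2 was low for it as for Irf3 and Irf5. Irf2bpl gave -0.77 (adjusted p = 0.0565) and Irf2bp1 0.11 (adjusted p = 0.833).

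**Figure D3:**
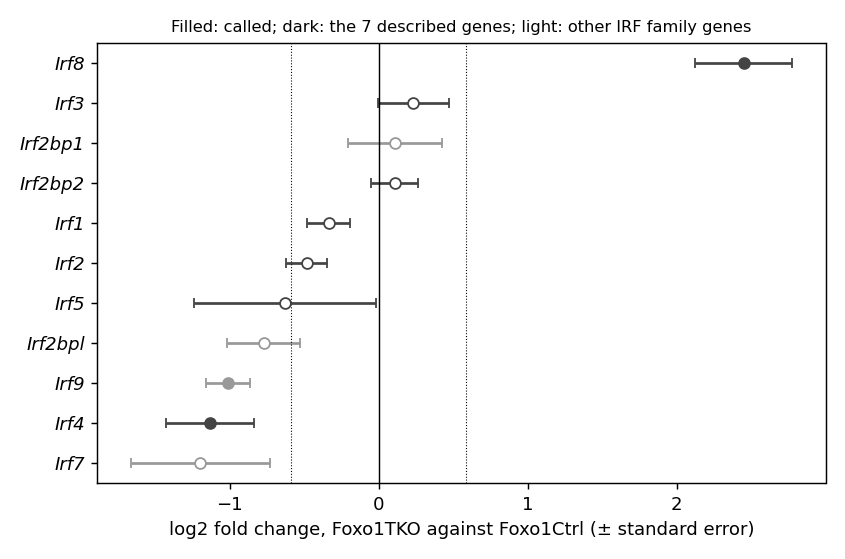
Log2 fold changes of Foxo1TKO against Foxo1Ctrl with standard errors (edgeR, n = 3 per genotype) for the 7 members in dark and the 4 related genes in light grey. Filled points are called, and the dotted lines mark the fold limit of 1.5. Irf8 is the only filled point above 0, while Irf4 and Irf9 are filled below it.

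Of 9 genes whose products pair with IRF proteins on DNA, 5 had enough reads, 1 fell and none rose. As 11.8% of all genes fell, this count is no result about the list. The median log2 fold change of the 5 was -1.09, the value of Stat2, between -1.67 for Jun and 0.19 for Junb. Jun, Junb and Jund (-0.44) were not called. Batf, the partner of IRF4 and IRF8 in lymphocytes, had 1146, 1086 and 911.1 normalized counts in Foxo1TKO and 2315, 2963 and 2212 in Foxo1Ctrl, a log2 fold change of -1.25 (SE 0.17, edgeR, adjusted p = 0.00206). Stat2, a partner of IRF9, was not called, with a log2 fold change of -1.09 (edgeR, adjusted p = 0.0689). Spi1 and Spib, which encode PU.1 and its relative, had too few reads, as did Batf2 and Batf3.

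Of 19 sensors, adaptors and kinases upstream of IRF3, IRF5 and IRF7, 16 were tested, 3 fell and none rose. Among all genes, 11.8% fell and 23.0% were called, so this count is no result about the list. The median log2 fold change of the 16 was -0.28. The RNA sensor Ddx58 (RIG-I) had a log2 fold change of -1.15, the nucleic acid sensor Zbp1 of -0.97, and the endosomal RNA receptor Tlr7 of -1.09. The kinases that phosphorylate IRF3 were not called, with log2 fold changes of -0.50 for Tbk1 (edgeR, adjusted p = 0.0566) and -0.87 for Ikbke (adjusted p = 0.0954). The adaptor Myd88 gave 0.04 (adjusted p = 0.928). The Tlr7 call was lost in 3 of the 6 fits that leave out a library.

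Of 13 interferon and receptor signaling genes, 11 were tested, and the type I interferon genes Ifna4 and Ifnb1 had no count in any library. Ifngr1, the ligand-binding chain of the interferon gamma receptor and a step upstream of Irf1, was the only one called, against 23.0% of all genes. It had 4590, 4477 and 3865 normalized counts in Foxo1TKO and 53590, 43490 and 47990 in Foxo1Ctrl, with no Foxo1TKO library near any Foxo1Ctrl library. Its log2 fold change was -3.49 (SE 0.17, edgeR, adjusted p = 3.42e-05), while Ifngr2 gave 0.30 (adjusted p = 0.52). Ifng, which encodes the ligand, gave 0.95 (SE 0.40, adjusted p = 0.126). Ifnar1, a chain of the type I interferon receptor, gave -0.98 (adjusted p = 0.0801). The list's median was -0.31.

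Another list, chosen with earlier results of these data known, held 20 interferon-induced genes that IRF1 or ISGF3 activates. All were tested, 9 fell and none rose, beside the 11.8% of all genes that fell. The median log2 fold change was -0.88. Guanylate-binding protein genes were among them, with Gbp2 at 3103 ± 257.3 and 18620 ± 3073 normalized counts (SD, n = 3), a log2 fold change of -2.58 (SE 0.18, edgeR, adjusted p = 0.000115), and Gbp3 at -1.72. So were the antiviral genes Ifit3 at -2.90, Mx1 at -2.07, Ifit1 at -1.81, Xaf1 at -1.32 and Isg20 at -1.03, and Casp1 at -0.97 and the MHC class I activator Nlrc5 at -0.69. The calls of Casp1, Isg20 and Nlrc5 were lost in 5, 3 and 2 of the 6 fits that leave out a library, and in 4, 2 and 1 of the 11 other alternatives.

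The other genes of the same list were not called, the antigen-processing genes among them. Psmb8 had 28010 ± 3095 normalized counts in Foxo1TKO and 28050 ± 2564 in Foxo1Ctrl (SD, n = 3), a log2 fold change of -0.00 (SE 0.16, edgeR, adjusted p = 0.993). Psmb9 gave -0.05 (adjusted p = 0.805) and Tap1 -0.20 (adjusted p = 0.72). Rsad2 at -1.39, Oas1a at -0.97, Isg15 at -0.79, Cd274 at -0.44, Bst2 at -0.16 and Ifi35 at -0.03 were also not called. The same held for Ciita at 0.09 and Il12rb1 at 0.56, which lay above 0.

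Of 8 genes of activated T cells that IRF4 acts on with BATF, 5 were tested and all 5 were called, against 23.0% of all genes. They went both ways, 2 higher and 3 lower in Foxo1TKO. The median log2 fold change of -3.61 is the value of Il21 and does not describe the list. The list was chosen with earlier results of these data known. Ctla4, an inhibitory receptor, had 309.8 ± 41.78 and 5618 ± 445.1 normalized counts (SD, n = 3), a log2 fold change of -4.18 (SE 0.18, edgeR, adjusted p = 3.42e-05). Prdm1, which encodes Blimp-1, had 7, 1 and 2 expected counts in Foxo1TKO and 69, 56 and 58 in Foxo1Ctrl, and the cytokine gene Il21 had 1, 6 and 0 against 32, 33 and 36. In the other direction, the repressor gene Bcl6 rose by 1.58 (SE 0.32, edgeR, adjusted p = 0.00998) and the chemokine receptor gene Ccr6 by 1.66 (SE 0.40, adjusted p = 0.0197) on the log2 scale. The Ccr6 call was lost in 3 of the 6 fits that leave out a library.

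**Figure D4:**
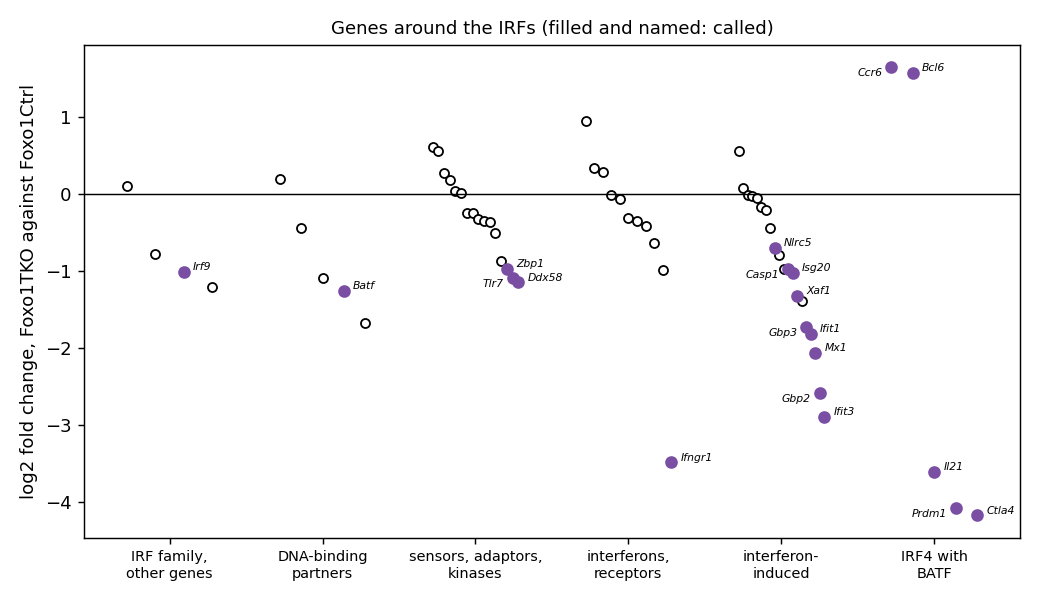
Log2 fold changes of Foxo1TKO against Foxo1Ctrl for each tested gene of 6 lists around the IRFs (n = 3 per genotype, edgeR), with called genes filled and named. In the first 5 lists each called gene lies below 0, while the IRF4 with BATF list has 2 above and 3 below.

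**Figure D5:**
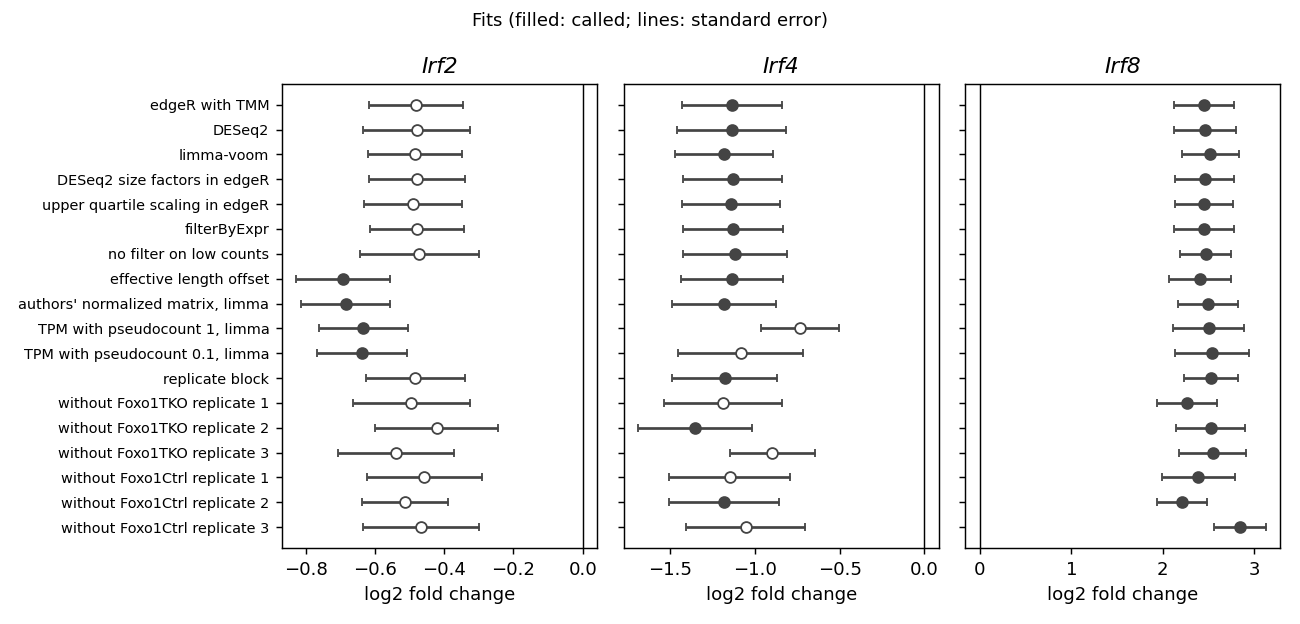
Log2 fold changes with standard errors of Irf2, Irf4 and Irf8 under each way of fitting, with filled points past both the adjusted p of 0.05 and the fold of 1.5. Irf8 is filled throughout, between 2.21 and 2.84. Irf2 is filled in the 4 fits that take transcript length into account, and Irf4 is open in 6 fits.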

How the data were processed

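RNA of 6 libraries, 3 per genotype, was sequenced. Per the methods and labels, the authors aligned reads with STAR 2.7.6a to GRCm38 and assigned them to genes with RSEM 1.3.1. The files hold the deposited expected counts, the deposited TPM, the isoform-weighted transcript lengths, and a matrix of normalized signal that the authors made with DESeq2 size factors. Beyond a factor per library, the matrix matched counts per effective length within 1% in every library for 100.0% of 7826 genes with 100 or more counts throughout, and counts alone for 18.3%, so it also carries transcript length. Strand, trimming and read length are not given in the sources used here.

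Expected counts were rounded, and genes reaching 10 counts in 3 or more libraries were tested with the quasi-likelihood test of edgeR 4.0.16 (R 4.3.3, TMM, prior count 1), fitted over both genotypes without covariates and adjusted by Benjamini-Hochberg over 13691 genes. A p refers to this test unless another is named. Alternatives used DESeq2 1.42.0, limma 3.58.1 (pseudocount 1 on the matrix, 1 or 0.1 on TPM), other scalings, other filters, an effective-length offset, a replicate block and leaving out each library. The fitting was tested on simulated counts. Gene positions come from GENCODE M21 and promoter letters from RefSeq.

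The members and gene lists were chosen with earlier results of these data known. The genes named are the 7 members, Foxo1, called genes of the lists, other list genes given for their role, and, for Irf4 and Irf8, the 3 genes with the smallest root mean square difference in log2 normalized counts. Of the lists, 3 genes are not reported here and were left out of the counts and medians of their lists.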

Additional observations from a re-analysis of the deposited data

How the results depend on the processing

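Against 3144 genes called, the fits leaving out 1 library called 1854 to 3321 genes, with 1854 without Foxo1TKO replicate 2 and 2031 without Foxo1Ctrl replicate 1. Among the members these fits called 1 to 2, with Irf4 lost in 4 of 6 and Irf8 called in 6 of 6. The other alternatives called 2887 to 3694 genes, the most with DESeq2, and 2 to 3 members. Irf4 was also lost with TPM in limma, at -0.73 (adjusted p = 0.0545) with a pseudocount of 1 and -1.08 (adjusted p = 0.0744) with 0.1, and Irf2 was called in the 4 fits that account for transcript length. No member changed direction in any fit. Same-numbered libraries of the genotypes had deviations correlated at 0.43, 0.20 and -0.11. Differently numbered ones ranged from -0.46 (Foxo1TKO 1 with Foxo1Ctrl 2) to 0.30 (Foxo1TKO 3 with Foxo1Ctrl 2). The numbers were thus not taken as pairs. With the replicate block, 3318 genes and 2 members were called. The Irf1 to Irf2 ratio from counts and the check of the matrix against lengths were chosen after seeing the data. Irf4 and Irf5 had 21.46 to 227.7 normalized counts per library, the fewest of the members.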

Other observations

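The genes whose levels over the 6 libraries followed Irf8 most closely, among 9229 genes whose mean reached 100 normalized counts, were Tnfrsf1b, Mctp1 and Ctps. Likeness was the root mean square difference of log2 normalized counts, each gene centred on its own mean. Tnfrsf1b, which encodes the TNF receptor TNFR2, differed from Irf8 by 0.18 on that measure, with 1054, 684.4 and 828.5 normalized counts in Foxo1TKO and 164.5, 117.8 and 212.2 in Foxo1Ctrl. Mctp1 differed by 0.20 and Ctps, which encodes a CTP synthase, by 0.21. For Irf4 the closest genes were Myo6, an unconventional myosin, at 0.17, 0610009E02Rik at 0.18 and Galnt4, a glycosyltransferase, at 0.18. Myo6 had 127.6, 155.3 and 89.07 normalized counts in Foxo1TKO and 249.2, 322.5 and 317.8 in Foxo1Ctrl. These lists describe 6 libraries that differ by genotype, and many genes that differ between the genotypes would lie close.

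Among the 4 natural killer cell markers, Eomes, a T-box gene also used by T cells, rose from 265.7 ± 71.47 to 1280 ± 57.37 normalized counts (SD, n = 3), a log2 fold change of 2.26 (SE 0.22, edgeR, adjusted p = 0.000425). Without Eomes, left out after its values were seen, the other 3 markers summed to 0.909 to 3.22 CPM in Foxo1TKO and 1.96 to 4.16 CPM in Foxo1Ctrl.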
